A study of Mus musculus with 4 samples.

Results

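The 10 genes described here encode transcription factors of the AP-1 and Egr families and were chosen by name: Fos, Fosb, Fosl1 and Fosl2 of the Fos family, Jun, Junb and Jund of the Jun family, Atf3 of the ATF family, and Egr1 and Egr2. They are 10 of the 17013 genes with deposited values, and 9 of them passed the filter on low values, all except Fosb. The study asked how the uptake of necrotic fat changes macrophages in dead bone. Macrophages were grown with M-CSF from the bone marrow of wild-type (WT) mice, and the study names male C57BL/6 mice as its wild-type animals. The cells were plated on Transwell inserts, left overnight, and harvested 24 h after treatment. In both groups aNBF (artificial necrotic bone fluid, a freeze-thaw extract of bone) was added above them. Under the insert was either the fat control medium (Con), taken from the middle layer of freeze-thawed abdominal fat, or the high-fat-containing medium (Fat), taken from its top layer. Both groups therefore received aNBF and a fat tissue preparation, and the contrast is between layers of that preparation. There were 2 libraries in each group, and no source says whether replicates came from separate mice or cultures, so the p-values measure only the spread between these libraries.

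Immediate early genes are transcribed within minutes of a signal from poised promoters, without new protein synthesis, and most of their mRNAs and proteins are short-lived. AP-1 is a dimer of basic leucine zipper proteins: Jun proteins pair with each other or with Fos and ATF proteins, whereas Fos proteins need a partner. In macrophages AP-1 acts at cytokine and protease genes, c-Fos is required for the step from precursor to osteoclast, and Egr1 and Egr2 are zinc finger factors linked to macrophage differentiation and activation. The values below are levels 24 h after treatment, with no earlier time point.

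The libraries held between 33573852 and 40785872 reads on genes, recovered from the deposited CPM (reads scaled to library size), in which 1 read was worth between 0.0244 and 0.0295 CPM. Of 12470 genes tested with limma on log2(CPM + 0.1), 498 (3.99%) were called higher and 624 (5.0%) lower in Fat at a Benjamini-Hochberg adjusted p under 0.05. The labelled cell type was checked with 8 macrophage markers, of which 7 were listed. Their summed level was 32779 to 34746 CPM in Con and 25918 to 27440 CPM in Fat. Most of that sum was Lyz2, at 28720.5 and 26818.8 CPM in Con and 21516.1 and 20346.7 CPM in Fat. Lyz2 was not called (limma adjusted p = 0.209). The log2 fold changes of Cd68 and Itgam were 0.09 and 0.07, those of Csf1r and Cd14 -0.21 and -0.15, without a call. None of the markers was called higher, and Fcgr1 and Mertk were called lower. The 8 adipocyte markers other than Fabp4 together had 6 and 9 reads in Con and 158 and 99 reads in Fat. Adipoq and Lep were at 0 in Con, and Cidec was called higher. The same Fat libraries held 9687 and 12852 Fos reads. Fabp4, left out of that sum, was at 189 and 208 CPM in Con and 180 and 176 CPM in Fat. It was not called (log2 fold change -0.16, limma adjusted p = 0.174). The fibroblast and adipose stroma markers summed to 614 and 638 CPM in Con and 513 and 657 CPM in Fat (1 of 5 tested, Dcn, lower), the endothelial markers to 5.38 and 6.84 CPM in Con and 8.81 and 9.12 CPM in Fat (1 of 3, Esam, higher). Neutrophil markers summed to 290 to 333 CPM in Con and 287 to 291 CPM in Fat, and lymphocyte markers to 18.2 to 19.5 and 15.1 to 16.4 CPM. None of the 6 neutrophil and 5 lymphocyte markers tested was called by limma, where 2 and 1 were lower at an unadjusted p under 0.05. In bulk RNA, fewer cells of a type and less RNA per cell cannot be told apart, and the part of other cells' RNA in the results below was not tested.

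The promoter sequences of 3 members are shown as examples of letters that match the motifs of factors described here or upstream of them. Sequences are from RefSeq on GRCm38.p6, a different build from the GRCm39 named for the expression values. Promoters of 8 of the 10 members were used, and none of Fosl1 or Egr1. The Fos promoter, the gene with the largest difference below, is given as the 250 bases before the start site at chr12:85473640-85473889, plus strand. Capitals mark TGACG, the core of the cAMP response element, at 129 and 66 bases before the start, and the TATA box TATAAA at 33 bases before it.
Fos: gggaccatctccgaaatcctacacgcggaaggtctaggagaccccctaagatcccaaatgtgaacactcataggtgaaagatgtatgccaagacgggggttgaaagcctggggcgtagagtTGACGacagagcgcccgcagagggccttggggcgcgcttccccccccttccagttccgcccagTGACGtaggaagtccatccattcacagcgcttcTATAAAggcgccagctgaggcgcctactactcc
The Fosl2 promoter (chr5:32136222-32136471, plus strand) held the Egr motif GCGNGGGCG, in capitals, at 79 bases before the start.
Fosl2: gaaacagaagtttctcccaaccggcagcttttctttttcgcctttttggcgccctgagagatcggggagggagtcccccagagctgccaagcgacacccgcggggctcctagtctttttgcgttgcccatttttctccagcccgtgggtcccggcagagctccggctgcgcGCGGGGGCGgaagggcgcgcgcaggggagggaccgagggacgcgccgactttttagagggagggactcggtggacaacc
A window of the Egr2 promoter (chr10:67537777-67537826, plus strand) held a CArG box, the element bound by serum response factor, in capitals. Only that box is marked, and CGTCA, which is TGACG on the other strand, follows it in small letters.
Egr2: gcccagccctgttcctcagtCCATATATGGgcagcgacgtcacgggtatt
For comparison, both strands of 32851 RefSeq promoters were searched, each with 250 bases before the start site and 50 after it. TGACG was found in 20.8%, TATAAA in 13.6%, GCGNGGGCG in 5.55% and the CArG box in 1.63%. The AP-1 site TGACTCA was found in 5.2%, and the full cAMP response element TGACGTCA, which contains TGACG, in 1.79%. Such letters were not particular to the promoters shown: before the start, Fosb held TGACG and GCGNGGGCG, and Junb and Atf3 held TGACG. Junb also held TATAAA, but at the start site itself and not before it. Another Egr2 promoter entry held a different CArG box. A match is a description of the letters and was not tested as a binding site.

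Of the 9 members tested, 3 rose in Fat, namely Fos, Fosl2 and Fosl1, and none fell. The shares of all tested genes called were 3.99% higher and 5.0% lower. No member was lower at an unadjusted p under 0.05 either, and edgeR's quasi-likelihood test, its exact test and DESeq2 on the recovered reads also called 3 higher and 0 lower. The median log2 fold change of the 9 members was 0.41, beside 0.01 for all genes tested. That median rested in part on 1 library: without Fat replicate 2 the members ranged from -0.068 (Jund) to 0.86 (Fos), with Egr2 at 0.24. Both Fat libraries lay above both Con libraries for 6 of the 9 (Fos, Fosl1, Fosl2, Atf3, Egr1 and Egr2), where 29.4% of all genes tested did so. For the 3 Jun family genes the groups overlapped.

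**Figure D1:**
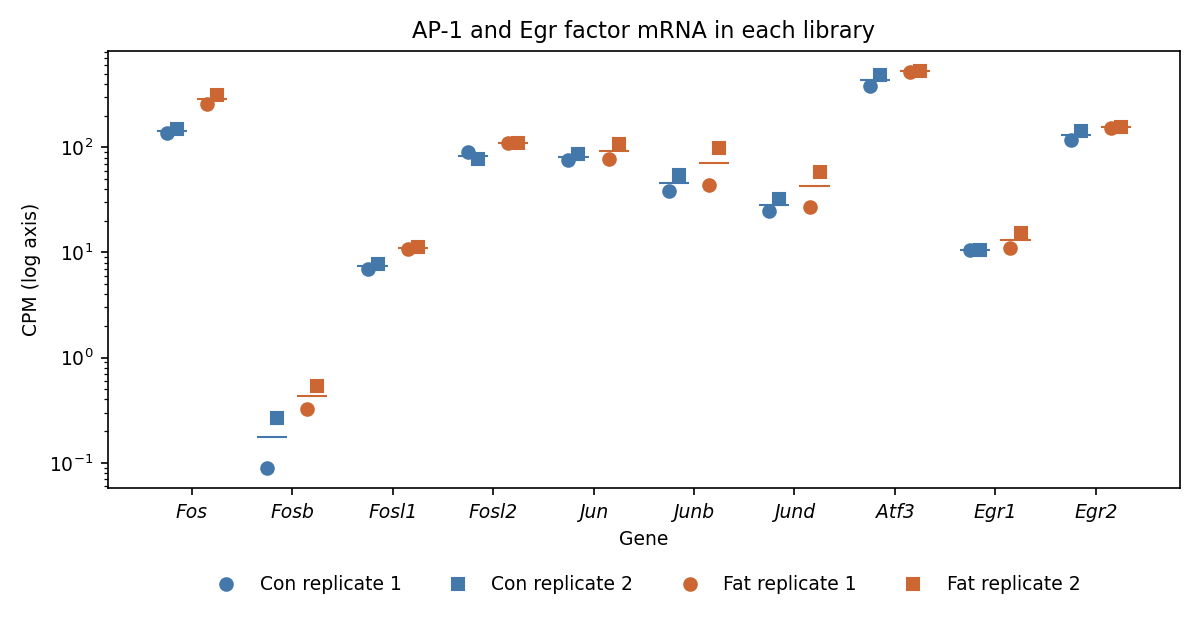
CPM of each of the 10 genes in the 2 Con and 2 Fat libraries (points) with the mean of each group (bar), on a log axis. Fos in Fat, at 259.5 and 313.5 CPM, sits clear of Con at 136.2 and 150.5 CPM, while Junb and Jund have 1 high Fat library and 1 at the level of Con.

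Fos, the founding member of its family and a factor that binds DNA only as a dimer with a Jun or ATF protein, was at 136.2 and 150.5 CPM in Con and at 259.5 and 313.5 CPM in Fat. Each Fat library exceeded each Con library, and the mean level went from 143.4 ± 10.1 to 286.5 ± 38.2 CPM (SD, n = 2), a 2.0-fold difference. The log2 fold change was 0.99 (standard error, SE, 0.09, 95% interval 0.77 to 1.21, limma adjusted p = 0.00328), the 26th smallest p among genes higher in Fat. With any 1 library left out it lay between 0.86 and 1.13 and remained called. Taken within the same replicate number, Fat over Con was 1.91-fold and 2.08-fold.

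Fosl2, which encodes Fra-2, was at 89.4 and 76.7 CPM in Con and at 109.8 and 110.3 CPM in Fat, so the Fat libraries lay close together above both Con libraries. Its log2 fold change was 0.41 (SE 0.08, 95% interval 0.23 to 0.59, limma adjusted p = 0.0206). Fosl1, which encodes Fra-1, was at 7.02 and 7.81 CPM in Con and 10.8 and 11.3 CPM in Fat. Its difference in log2 CPM was larger than that of Fosl2, at 0.57 (SE 0.10, 95% interval 0.33 to 0.81, limma adjusted p = 0.0184), and the intervals of both overlap. Both Fra proteins lack the transactivation domain of c-Fos.

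Calls for the smaller of these differences rested on single libraries. Without Fat replicate 2 the limma adjusted p was 0.0566 for Fosl2 and 0.0754 for Fosl1, without Con replicate 1 it was 0.0639 for Fosl1, and a lone library is assumed in such fits to vary like the others. Without limma's mean-variance trend the adjusted p was 0.0831 for Fos and Fosl1 and 0.134 for Fosl2, so none of the 3 was called, although all 3 had an unadjusted p under 0.05.

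Fosb was almost silent. It had 3 and 10 reads in Con and 12 and 22 reads in Fat, or 0.0885 to 0.267 CPM and 0.321 to 0.537 CPM, and fell under the filter of 0.5 CPM in 2 libraries. The summed reads, 13 in Con and 34 in Fat, gave a ratio of 2.39 after scaling (exact 95% interval 1.23 to 4.92, counting error only). With no filter on low values, limma gave Fosb a log2 fold change of 0.98 (SE 0.39, adjusted p = 0.230), which was not called.

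**Figure D2:**
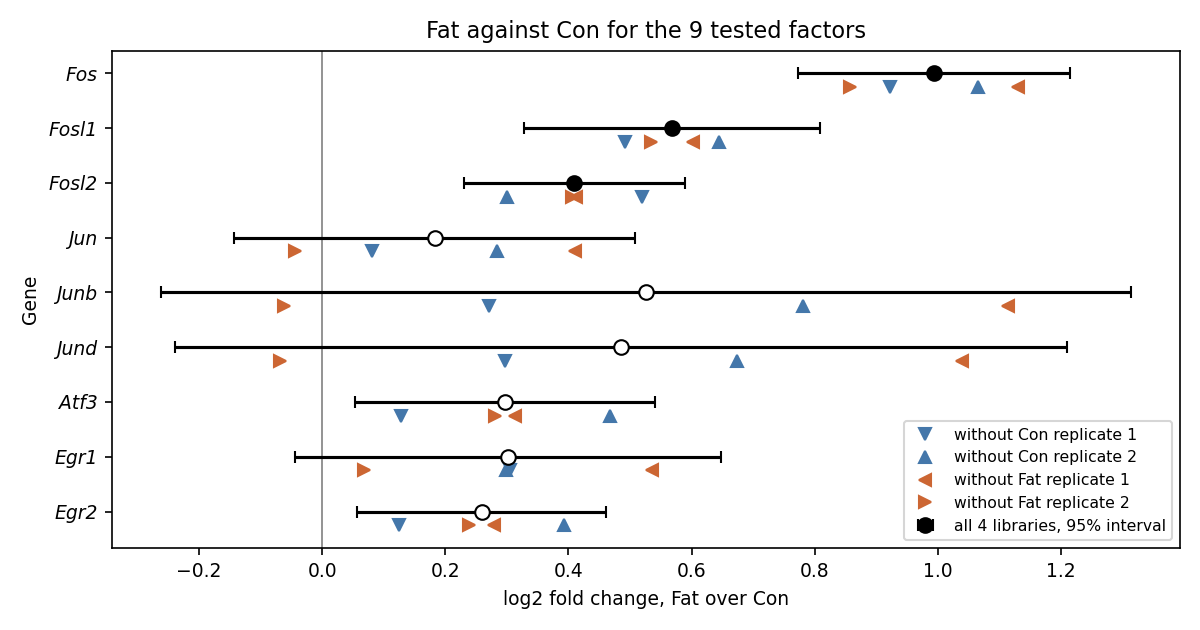
Log2 fold change of Fat over Con in log2(CPM + 0.1) for the 9 members tested, with its 95% interval from limma as a line. Filled points have an adjusted p under 0.05: Fos at 0.99, Fosl1 at 0.57 and Fosl2 at 0.41, while the intervals of Jun, Junb, Jund and Egr1 include 0.

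The Jun proteins are dimer partners of the Fos proteins, and none of the Jun family genes was called. Jun, the transactivating partner, was at 75.1 and 86.4 CPM in Con and 78.1 and 107.1 CPM in Fat, with a log2 fold change of 0.18 (95% interval -0.14 to 0.51, limma adjusted p = 0.479). Junb, which often counters Jun and is itself an immediate early gene, was at 38.04 and 54.2 CPM in Con and at 43.5 and 98.4 CPM in Fat. Jund, the most constitutive member of the family, was at 24.8 and 32.2 CPM in Con and at 27.0 and 58.2 CPM in Fat. For all 3 genes Fat replicate 1 lay between the Con libraries, and Fat replicate 2 lay above every other library. The log2 fold changes of Junb and Jund were 0.53 (95% interval -0.26 to 1.31, limma adjusted p = 0.397) and 0.49 (-0.24 to 1.21, adjusted p = 0.394), and both intervals span 0.

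These averages depended on which Fat library was counted. Without Fat replicate 2, the log2 fold changes were -0.044 for Jun, -0.062 for Junb and -0.068 for Jund, none of them called. Without Fat replicate 1 they were 0.41, 1.11 and 1.04, with limma adjusted p of 0.0333, 0.00400 and 0.00225. Junb was 2.26-fold and Jund 2.16-fold higher in Fat replicate 2 than in Fat replicate 1, and only 28 and 36 of the 12470 genes tested (0.225% and 0.289%) had a ratio at least as high. The Con replicates differed in the same direction but less, by 0.51 for Junb and 0.38 for Jund on the log2 scale.

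The transcripts of Junb and Jund are rich in G and C, with a GC content of 62.6% and 67.1% in the longest annotated transcript. Among the 1189 genes of the top bin in GC content (57.7% or more, from 11889 genes with a value cut into equal bins), the median log2 ratio of Fat replicate 2 over Fat replicate 1 was 0.13, against -0.04 in the lowest bin, and 13 and 15 of those 1189 genes had ratios at least as high as Junb and Jund. Between the Con replicates the medians of the top and lowest bins were 0.10 and -0.06, and for Fat over Con they were 0.08 and 0.01. Fosl1, also in the top bin with 58.5%, had a log2 ratio of 0.07 between the Fat libraries. The part of GC content in the Junb, Jund and Fosl1 values was not tested.

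**Figure D3:**
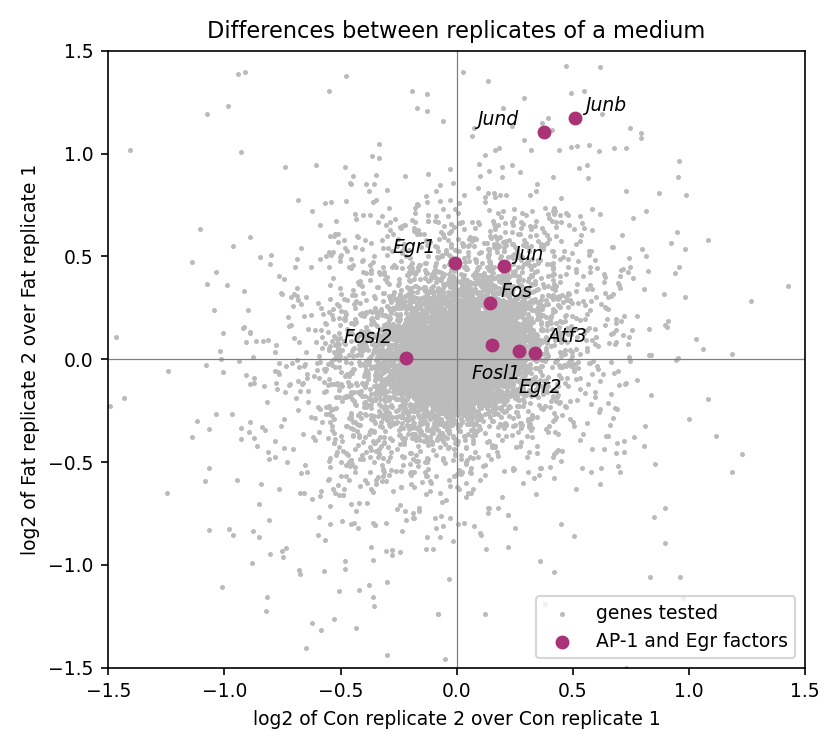
Log2 ratio of replicate 2 over replicate 1 in Con (horizontal axis) and in Fat (vertical axis) for the genes tested (grey) and the 9 members (coloured); 14 genes lie outside the plotted range. Junb at 1.18 and Jund at 1.11 on the vertical axis stand apart from the other members, of which the next, Egr1 and Jun, are at 0.47 and 0.45.

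Atf3, a stress-induced factor that pairs with Jun proteins and restrains inflammatory genes, was the most abundant member, at 383.4 and 485.2 CPM in Con and 524.1 and 536.0 CPM in Fat. The Fat libraries lay above both Con libraries, but the Con libraries differed from each other by more than Con replicate 2 differed from Fat. The log2 fold change was 0.30 (SE 0.10, 95% interval 0.05 to 0.54) and was not called (limma adjusted p = 0.132). Without Con replicate 2 it was 0.47 and called (limma adjusted p = 0.00317), and without Con replicate 1 it was 0.13 (adjusted p = 0.370).

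Egr2 and Egr1 are zinc finger factors that bind the same GC-rich motif, and neither was called. Egr2 was at 118.2 and 142.4 CPM in Con and 153.1 and 157.5 CPM in Fat, a log2 fold change of 0.26 (SE 0.09, 95% interval 0.06 to 0.46, limma adjusted p = 0.117). As with Atf3, both Fat libraries were higher and the Con libraries were the more spread out. Without Con replicate 2 the log2 fold change of Egr2 was 0.39 (limma adjusted p = 0.00653), and without Con replicate 1 it was 0.13 (adjusted p = 0.369). Egr1 was at 10.5 and 10.4 CPM in Con and at 11.0 and 15.2 CPM in Fat, with a log2 fold change of 0.30 (95% interval -0.04 to 0.65, limma adjusted p = 0.267). Fat replicate 1 was close to Con and Fat replicate 2 above it, and without Fat replicate 1 the log2 fold change was 0.54 (limma adjusted p = 0.0279). Without Fat replicate 2 it was 0.068 (limma adjusted p = 0.853).

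Levels can be compared between genes on the TPM scale, which accounts for gene length. In Con the order from high to low was Atf3 (424 to 527 TPM), Fos (142 to 154), Egr2 (87.2 to 103), Junb (45.2 to 63.2) and Jun (51.5 to 58.2), Fosl2 (28.1 to 33.4), Jund (18.9 to 24.0), Fosl1 (9.01 to 9.83), Egr1 (7.30 to 7.48) and Fosb (0.0513 to 0.151). Junb and Jun overlapped, and all other neighbours in that order had separate ranges. In Fat, Atf3 (588 to 601 TPM) and Fos (275 to 331) again led, Egr2 (114 to 118) overlapped Junb (52.4 to 118), Junb overlapped Jun (54.3 to 74.4), and Fosl2 (41.5 to 41.6) overlapped Jund (20.8 to 44.8). Fosl1 (14.0 to 14.7), Egr1 (7.92 to 11.0) and Fosb (0.189 to 0.315) closed the order as in Con.

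The Fos family was dominated by Fos itself, which made up 77.0% and 80.2% of the family's summed TPM in Con and 83.1% and 85.4% in Fat. The share of Fosl2 was 18.1% and 14.6% in Con and 12.6% and 10.7% in Fat, and that of Fosl1 was between 3.78% and 5.11% throughout. The summed Fos family was at 185 and 192 TPM in Con and 330.4 and 388 TPM in Fat, with no overlap. The summed Jun family was at 116 and 145 TPM in Con and 127 and 238 TPM in Fat, with overlap, and the ratio of both sums was 1.60 and 1.32 in Con and 2.59 and 1.63 in Fat. Fat replicate 1 stood above both Con libraries by this ratio, and Fat replicate 2 was close to Con replicate 1. The ratio of Fos to Jun, in contrast, was 2.76 and 2.65 in Con and 5.06 and 4.46 in Fat. Within the Jun family, Jun and Junb had similar shares (40.0% to 44.6% and 39.1% to 43.5%) in every library except Fat replicate 2, where Junb held 49.8% and Jun 31.3%. Egr2 made up 91.5% to 93.5% of the summed Egr1 and Egr2 TPM in all 4 libraries. These shares are descriptions and were not tested.

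**Figure D4:**
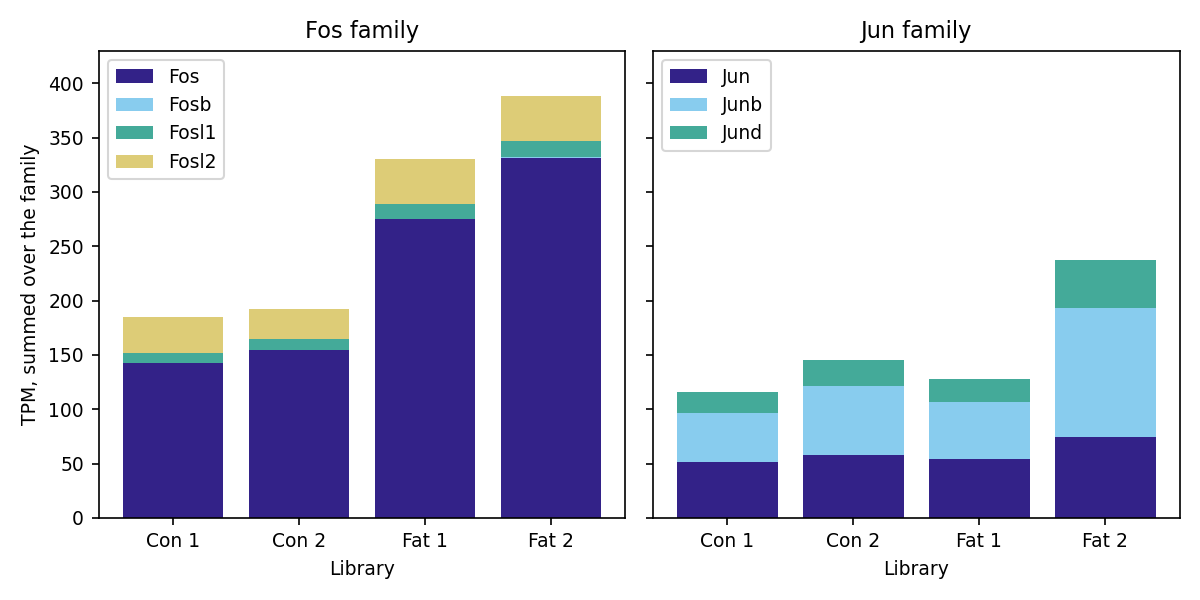
Summed TPM of the Fos and Jun members in each of the 4 libraries, stacked by gene. The Fos bars reach 185 and 192 TPM in Con and 330.4 and 388 TPM in Fat and consist mostly of Fos, whereas the Jun bar is tall in Fat replicate 2 alone, at 238 TPM.

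The pathway around these factors was described with 8 lists of genes, and 4 genes stand in more than 1 list. Beside the counts below, 3.99% of all genes tested were called higher and 5.0% lower, with a median log2 fold change of 0.01. Among 22 other AP-1 dimer partners, 2 rose and 2 fell (median log2 fold change 0.03). Batf2, an interferon-inducible partner of Jun proteins, fell from 14.1 ± 1.02 to 7.35 ± 0.180 CPM (SD, n = 2; log2 fold change -0.93, limma adjusted p = 0.00381), and its relative Batf3, needed for cross-presenting dendritic cells, fell by 0.57 (adjusted p = 0.0396). Maff, a small Maf protein that partners Nrf2, rose by 0.73 (adjusted p = 0.0144), and Atf4, the effector of the integrated stress response, rose by 0.26 (adjusted p = 0.0249). Without Fat replicate 2 the counts were 0 higher and 1 lower, and without Con replicate 2 they were 1 and 1. Of 5 Egr relatives and corepressors, Egr3, Nab1 and Nab2 were tested and none was called by limma, edgeR or DESeq2, with 0 at an unadjusted p under 0.05.

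Upstream, the MAP kinase and SRF route carries growth factor and stress signals to the Fos and Egr promoters. Of its 29 genes, 1 rose and none fell, with a median log2 fold change of 0.05. That gene was Srf, the factor that binds the CArG box, at 35.8 and 39.3 CPM in Con and 47.2 and 52.3 CPM in Fat (0.41 on the log2 scale, with a standard error of 0.08 and a limma adjusted p = 0.0218). It was not called without Fat replicate 2 or without Con replicate 1, when no gene of the route was, and without Con replicate 2 the route had 2 genes higher and 2 lower. At an unadjusted p under 0.05, 6 genes of the route were higher and 2 lower, and edgeR's exact test and DESeq2 each called 1 of the 29 lower.

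Other immediate early genes were measured in 31 of 32 cases, and 7 rose and 1 fell, with a median log2 fold change of 0.16. Dusp5, a nuclear phosphatase of ERK, was at 6.98 ± 0.948 CPM in Con and 16.8 ± 0.909 CPM in Fat (SD, n = 2; log2 fold change 1.26, limma adjusted p = 0.00311). Nr4a1, an orphan nuclear receptor, went from 2.59 and 3.49 CPM in Con to 5.41 and 7.83 CPM in Fat (1.09, adjusted p = 0.0234). Klf10, a TGF-beta inducible zinc finger factor, rose by 0.59 (adjusted p = 0.00352), and Dusp1, a phosphatase of p38 and JNK, rose by 0.50 (adjusted p = 0.0174). Klf4, a zinc finger factor of monocyte differentiation, was the 1 gene that fell (-0.46, limma adjusted p = 0.0368), and it is named here because its value was seen. The counts were 3 higher and 1 lower without Fat replicate 2, 4 and 0 without Con replicate 1, and 11 and 0 without Fat replicate 1.

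Known AP-1 target genes moved in both directions: of 19 tested, 4 rose and 5 fell (median log2 fold change 0.15). The inflammatory targets Ccl2, a monocyte chemokine (from 84.5 ± 12.6 to 30.0 ± 13.3 CPM, log2 fold change -1.56, limma adjusted p = 0.0145), and Il1b, the gene of interleukin-1 beta (from 16.8 ± 4.52 to 6.12 ± 1.16 CPM, -1.43, adjusted p = 0.00760), fell, all as SD with n = 2. Hmox1, the heme-degrading enzyme heme oxygenase 1 (0.95, adjusted p = 0.00286), and Vegfa, the angiogenic growth factor (0.76, adjusted p = 0.00311), rose. Ptgs2 and Gclc also rose, and Tnf, Mmp14 and Ccnd1 also fell. Without Fat replicate 2, 3 rose and 4 fell. Of 11 Egr targets, 2 rose and 1 fell (median 0.22): F3, the gene of tissue factor (0.79, limma adjusted p = 0.0290), and Pdgfa, a growth factor chain (0.42, adjusted p = 0.0425), were higher, and the adhesion molecule gene Icam1 was lower (-0.69, adjusted p = 0.00919). Without Fat replicate 2 or Con replicate 1, 1 Egr target was higher and 1 lower, without Con replicate 2, 4 were higher and 1 lower, and with edgeR's exact test 5 were higher and 1 lower.

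Osteoclast genes that depend on c-Fos are of interest because macrophages are osteoclast precursors. Of 11 listed, 9 were tested, and 4 rose and none fell, with a median log2 fold change of 0.21. No gene of the list was lower at an unadjusted p under 0.05 or by edgeR or DESeq2. Acp5, Ctsk, Mmp9 and Atp6v0d2 were not called, and whether any gene of the list followed Fos was not tested. Car2, the carbonic anhydrase of acid secretion, was at 5.78 and 4.58 CPM in Con and 15.9 and 12.8 CPM in Fat (1.45, limma adjusted p = 0.00357). Ocstamp and Dcstamp, which serve the fusion of precursors, rose by 0.47 (adjusted p = 0.0268) and 0.31 (adjusted p = 0.0447), and Itgb3, the beta-3 integrin, rose by 0.36 (adjusted p = 0.0207). Nfatc1, the master factor of the lineage, was at 41.3 ± 1.70 CPM in Con and 42.4 ± 1.90 CPM in Fat (SD, n = 2; 0.04, adjusted p = 0.784). The counts were 1 higher without Con replicate 1 and 2 without either Fat library. Of the 6 osteoclast markers, which overlap this list, 4 were tested, 2 (Ocstamp and Dcstamp) rose, and the sum was 365 and 443 CPM in Con and 451 and 443 CPM in Fat. Calcr and Oscar, late markers, had at most 5 reads in any library.

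Heat shock genes, which share with Fos a response to cell stress, were tested in 12 of 12 cases, and 3 rose and none fell (median 0.08). Bag3, a co-chaperone, rose by 0.56 on the log2 scale (limma adjusted p = 0.00726), Hsph1, a nucleotide exchange factor of Hsp70, by 0.40 (adjusted p = 0.00850) and Hsp90aa1, the inducible form of Hsp90, by 0.30 (adjusted p = 0.0186). Hspa1a and Hspa1b, the inducible Hsp70 genes, were not called (0.38, adjusted p = 0.499, and 0.09, adjusted p = 0.899), and they are near-identical copies that share reads. No gene of the list was lower at an unadjusted p under 0.05 or by edgeR or DESeq2, and 2 were higher without Fat replicate 2.

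**Figure D5:**
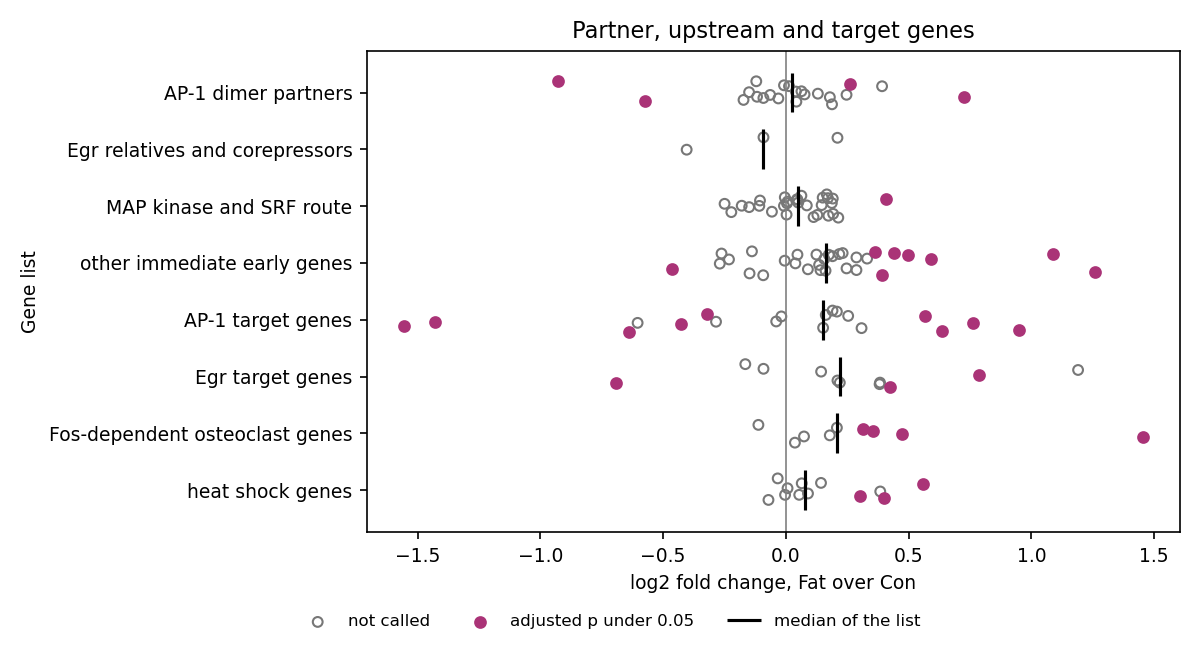
Log2 fold change of Fat over Con in log2(CPM + 0.1) for every tested gene of the 8 lists, with the median of each list as a bar. Filled points have a limma adjusted p under 0.05. AP-1 targets spread from -1.56 (Ccl2) to 0.95 (Hmox1), and the other immediate early genes reach 1.26 (Dusp5).

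For each member that was called, the 3 genes with the most similar profile over the 4 libraries were found by the distance between log2(CPM + 0.1) values centred on each gene's mean. For Fos these were Engase (distance 0.09), Syt13 (0.12) and Dos (0.12), beside a spread of the Fos values themselves of 1.02 on the same scale. Engase, which encodes a cytosolic enzyme that trims glycans, was at 30.5 and 31.8 CPM in Con and 59.6 and 71.2 CPM in Fat. For Fosl1 they were Fignl2 (0.02), Procr (0.03) and Nedd4l (0.04), of which Procr encodes the protein C receptor. For Fosl2 they were Slc16a10 (0.02), an aromatic amino acid transporter gene, Ankrd33b (0.03) and Fam126a (0.04). Each profile has 4 points, and the order is a description.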

How the data were processed

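The authors sequenced polyA RNA from 4 stranded libraries and deposited values as CPM and as TPM, the latter scaled for gene length too. The build listed with the submitters' processing notes is GRCm39, and the aligner, counter and annotation are not given in the sources used here. Every CPM value was a whole number of reads within 0.01 (100%), so reads were recovered. No column was left without a sample. Groups and replicate numbers came from the labels.

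limma 3.58.1 (R 4.3.3) with a mean-variance trend was run, two-sided, on log2(CPM + 0.1) for genes with at least 0.5 CPM in 2 libraries. A fold change on this scale understates the change of low genes. For a single gene an exact permutation test of 2 against 2 libraries cannot give p below 0.333. Alternatives are given after the report and included edgeR 4.0.16 and DESeq2 1.42.0 on recovered reads. The limit of detection was 3 reads, and intervals on reads cover counting error only.

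The 10 members and the lists of pathway and marker genes were chosen with earlier results of these data known. Named genes are the members, up to 4 called genes per list with the largest change, and the 3 nearest profiles per called member. Klf4, Nfatc1, Hspa1a, Hspa1b, the markers given by name, and the list members given by name alone were added after their values were seen. GC content is that of the longest transcript in GENCODE vM21. Fits were also run on simulated counts with the same spread setting for every gene. That run checks the code and cannot show how many calls in these libraries are false.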

Additional observations from a re-analysis of the deposited data

How the results depend on the processing

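Of 571 log2 fold changes recomputed for 41 named genes, 474 kept their direction and side of the threshold, 82 kept only the direction, 12 newly passed the threshold and 3 reversed. The reversals were Jun, Junb and Jund, which gave -0.044, -0.062 and -0.068 without Fat replicate 2 and ranged up to 0.41, 1.11 and 1.04 with another library left out. Limma called 1122 genes, and between 529 (without Fat replicate 2) and 1131 (without Con replicate 2) with 1 library left out, while the members called ranged from 1 to 7. Without the mean-variance trend 31 genes and 0 members were called, with 3 members at an unadjusted p under 0.05. On TPM values 425 genes were higher and 366 lower, against 498 and 624 on CPM, and the median of all genes moved from 0.01 to 0.04. The cause was not tested for any of these. A replicate block called 2520 genes and 9 members. Deviations of libraries that share a number correlated at 0.20, and no source ties them, so the block stays an alternative. The count of members called was 3 with TPM, median-ratio scaling, a pseudocount of 1 CPM, a minimum mean of 5 CPM, unfiltered genes, edgeR and DESeq2. The counts of each list without Fat replicate 2 were added after seeing the data. Atf3 and Egr2 missed the threshold at log2 fold changes of 0.30 (SE 0.10) and 0.26 (SE 0.09). Fosl1 was called at 0.57 with a like SE of 0.10. Fosb did not pass the filter on low values. With 2 libraries per group, the reason for a missed call was not tested.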
